A study of Rattus norvegicus with 30 samples.

Results

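The intact rat testis was followed here from 14.5 to 24.5 days postpartum (dpp), the 10 days in which the first wave of germ cells reaches the pachytene stage of meiosis and Sertoli cells leave their immature state. The libraries were chosen by their labels as the untreated in vivo testes of these ages, and they are 5 of the 30 libraries of the series: 2 of 14.5 dpp (replicates 1 and 2) and 3 of 24.5 dpp (replicates 1 to 3). All came from Wistar Han rats, with a different testis for each replicate, so tubules and interstitium were sampled together. The titles of the libraries carry the unit dpc, while the ages are postnatal days. Another 14.5 dpp library, labelled as an outlier, is listed at 0 for all genes and was left out. Explants dissected at 8.5 dpp and cultured for 6 days (D6) or 16 days (D16), with 3 libraries each and 12 pooled explants per library, served as a comparison for the same 10 days of age. The paper dropped D6 from its own gene selection because its cell composition differed. It also states that the necrotic centre of explants was cut away before molecular work.

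Spermatogonia divide by mitosis, enter meiosis and become spermatocytes, which pair and recombine their chromosomes through leptotene, zygotene and the long pachytene stage before they divide into haploid spermatids. Sertoli cells, the somatic cells of the tubule, stop dividing around puberty, lower their output of anti-Müllerian hormone and seal the tubule with junctions behind which meiosis proceeds. Leydig cells, outside the tubule, make androgens. The RNA was taken from whole testis, and each value is relative to all mapped reads of its library. Fewer cells of a type, less RNA per cell and more RNA from other cells therefore cannot be told apart in any value below.

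Each value is a number of fragments per kilobase of transcript, scaled to the mapped reads of its library (FPKM), as deposited by the authors for rn6. FPKM are scaled to transcript length, so levels of different genes can be set side by side. Changes are differences on the log2(FPKM + 1) scale, 24.5 minus 14.5 dpp, with the standard error (SE) and the adjusted p of limma, and this scale understates the change of genes with low values. Called are genes with an adjusted p of at most 0.05 whose group medians had a ratio of at least 2 in either direction. Values of single libraries are given in the order of their replicate numbers.

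Between 12894 and 13081 genes had a value above 0 in each of the 5 libraries, and the 10 most abundant genes held 3.45% to 4.27% of the summed FPKM. The spacing of the lowest values puts the relative depth between 0.918 and 1.12 times that of 14.5 dpp replicate 1, while the absolute depth is unknown. Replicates differed at both ages, and with 2 testes at 14.5 dpp neither can be called the one that stood apart. Between the 14.5 dpp testes 389 genes lay at least 1 apart on the log2 scale, and replicate 2 was the higher one for 12 of 12 genes of the synaptonemal complex, against 55.2% of all tested genes. Among the 24.5 dpp testes, replicates 1 and 2 differed at 193 genes, while replicate 3 differed from them at 347 and 453 genes. Replicate 3 was below both others for 12 of the 16 tested pachytene products and for 10 of 14 Leydig cell genes, and above both for 11 of 12 Sertoli cell identity genes. Markers of the epididymis summed to at most 0.14 FPKM in any library, and 4 of 5 were listed at 0 in all libraries.

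Of 11589 genes tested, 35.6% were called, 14.6% as higher at 24.5 dpp (1687 genes) and 21.1% as lower (2444 genes). Rises were larger than falls: the median change was 1.48 among the higher genes and -1.14 among the lower genes, and 284 genes rose by at least 3 while 15 fell by as much. Counts in the lists below are to be read against the shares of all tested genes given above. The median over all tested genes was -0.18, and list medians below are to be read against it. Scaling each library by the median of its ratios to an average library moves this median up by 0.18 and turns the split into 2017 higher and 1853 lower genes, so that 52.1% of the calls instead of 40.8% are rises. Without 14.5 dpp replicate 1 the number called dropped to 2585, of which 2457 were called in the same direction with all libraries.

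The largest rises were genes of late spermatocytes and sperm. Fabp9, a lipid-binding protein of the testis, was listed at 0 in both 14.5 dpp testes and reached 892, 1065 and 661 FPKM at 24.5 dpp (adjusted p = 5.81e-05). Ropn1l, a protein of the sperm flagellum, went from 0 in both to 312, 382 and 197 FPKM. In both cases the groups were far apart, with no fold to give against values of 0. Cox8c, the testis form of a subunit of cytochrome c oxidase, was at 1.66 and 2.67 FPKM and then at 578, 778 and 404 FPKM. The other rises among the 8 largest were those of Ldhc (7.63), Crisp2 (6.96), Cetn1 (6.95), Cmtm2a (6.93) and Piwil1 (6.86).

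The largest falls were those of Bloc1s1 (-5.62), Smim11 (-4.09), Mybphl (-3.97), Jund (-3.73), Angptl2 (-3.41), Fhl2 (-3.41), Gpc3 (-3.36) and Tubb2b (-3.32). Bloc1s1, a subunit of a lysosomal complex, was at 51.0 and 45.4 FPKM at 14.5 dpp and was listed at 0 in all 3 testes of 24.5 dpp, in all 3 D16 explants and in 1 of 3 D6 explants, and its mean was 0.292 FPKM at 8.5 dpp. Such a gene of general use can be listed at 0 because it was not estimated, so its fall is given as listed. Smim11 was at 0, 0 and 13.1 FPKM at 24.5 dpp. Tubb2b was listed at 0 in all 3 testes of 24.5 dpp and had a mean of 2.12 FPKM at 30.5 dpp. The falls of Smim11 and Tubb2b are likewise given as listed. Jund, an AP-1 transcription factor, was at 213 and 152 FPKM and then at 3.40, 6.52 and 74.9 FPKM, with 24.5 dpp replicate 3 far above the other two, and neither it nor Smim11 was called when any library other than replicate 3 was left out. Fhl2 was not called without 14.5 dpp replicate 1. Gpc3, a heparan sulphate proteoglycan of the cell surface, was at 34.9 and 25.9 FPKM and then at 2.23, 1.80 and 2.08 FPKM (SE 0.18, adjusted p = 0.00021), so its groups lay apart with little spread.

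Promoters of 5 genes that rose together are shown because they cover the steps that follow, a regulator, a piRNA-binding protein and 3 products of pachytene cells. Each is 300 bases, 250 before and 50 after the start of the gene, 5′ to 3′, taken from RefSeq on the assembly GRCr8, which is not the build of the expression values. Capitals mark matches to AACNG on either strand, the core letters bound by MYB factors such as MYBL1. Matches to TGACGTCA, bound by CREM, and GTTGCCA, bound by RFX factors, were also searched on both strands and were not found in these 5 windows.
Rfx2 (chr9:1758097-1758396, minus strand): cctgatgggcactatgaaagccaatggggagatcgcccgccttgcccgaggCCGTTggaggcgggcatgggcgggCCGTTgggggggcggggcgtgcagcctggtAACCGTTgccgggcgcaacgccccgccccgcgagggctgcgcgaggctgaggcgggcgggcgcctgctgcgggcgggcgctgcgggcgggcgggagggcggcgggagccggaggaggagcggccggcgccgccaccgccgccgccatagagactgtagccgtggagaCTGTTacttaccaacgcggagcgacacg
Piwil1 (chr12:33606534-33606833, minus strand): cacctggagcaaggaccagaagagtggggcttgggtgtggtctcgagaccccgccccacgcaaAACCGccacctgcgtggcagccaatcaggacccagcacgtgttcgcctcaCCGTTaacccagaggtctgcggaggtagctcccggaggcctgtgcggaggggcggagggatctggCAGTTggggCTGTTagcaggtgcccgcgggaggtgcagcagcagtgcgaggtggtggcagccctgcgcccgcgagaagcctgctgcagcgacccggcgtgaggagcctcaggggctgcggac
Hspa2 (chr6:100864192-100864491, plus strand): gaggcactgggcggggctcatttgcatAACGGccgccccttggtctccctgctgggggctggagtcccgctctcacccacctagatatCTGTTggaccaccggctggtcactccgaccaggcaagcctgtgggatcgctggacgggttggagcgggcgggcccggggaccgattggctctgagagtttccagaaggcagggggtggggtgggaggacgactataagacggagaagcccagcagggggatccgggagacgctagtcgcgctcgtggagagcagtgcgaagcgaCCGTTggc
Ldhc (chr1:106522745-106523044, plus strand): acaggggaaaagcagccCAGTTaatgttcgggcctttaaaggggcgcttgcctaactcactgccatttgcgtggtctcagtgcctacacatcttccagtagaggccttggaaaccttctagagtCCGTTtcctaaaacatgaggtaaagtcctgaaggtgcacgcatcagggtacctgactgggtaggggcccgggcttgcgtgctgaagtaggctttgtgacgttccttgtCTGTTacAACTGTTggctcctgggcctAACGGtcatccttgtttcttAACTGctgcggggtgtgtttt
Pgk2 (chr9:27976663-27976962, plus strand): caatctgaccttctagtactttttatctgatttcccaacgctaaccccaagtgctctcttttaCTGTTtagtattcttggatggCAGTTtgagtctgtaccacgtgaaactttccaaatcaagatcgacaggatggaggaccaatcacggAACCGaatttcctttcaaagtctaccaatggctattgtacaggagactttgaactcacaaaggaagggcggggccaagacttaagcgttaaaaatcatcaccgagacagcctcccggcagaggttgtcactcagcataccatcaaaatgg
The Ldhc window held 7 matches to AACNG, the Rfx2 window 5, the Piwil1 window 4, and the Hspa2 and Pgk2 windows 3 each. This short motif is common: 78.4% of 9069 tested genes with 1 promoter in the table had at least 1 match, compared with 84.5% of the 1321 genes called higher and 74.3% of the 1842 called lower. TGACGTCA was present in 3.15% of all tested promoters, in 2.88% of the higher and in 2.55% of the lower ones. GTTGCCA was present in 4.06% of all, in 8.86% of the higher and in 2.39% of the lower ones. Of the 46 promoters of called meiosis, piRNA and pachytene genes, 43 held AACNG, and none held either of the longer motifs. These shares describe letters in a window and were not tested.

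Genes of undifferentiated spermatogonia were mostly lower at 24.5 dpp. Of 16 listed genes 13 were tested, and 8 fell, 1 rose and 4 were not called (median -0.84). Gfra1, the receptor for the stem cell factor GDNF, was at 5.99 and 4.15 FPKM and then at 1.55, 1.36 and 1.86 FPKM (-1.21, SE 0.19, adjusted p = 0.00386). Its partner Ret fell by 1.14 on the log2 scale, with 5.54 and 3.96 FPKM at 14.5 dpp and 1.35 to 1.97 FPKM at 24.5 dpp. Groups did not overlap for either gene. Zbtb16, a transcription factor of progenitors, was at 6.54 and 6.50 FPKM and then at 2.43, 2.65 and 4.61 FPKM (-0.87, adjusted p = 0.0249). The exception was Id4, a helix-loop-helix protein that marks stem cells and is also made elsewhere in the testis, at 4.35 and 7.44 FPKM and then at 67.5, 81.8 and 41.9 FPKM (3.22, SE 0.33, adjusted p = 0.0013). The falls numbered 3 without 14.5 dpp replicate 1, and Zbtb16 was not called when any library other than 24.5 dpp replicate 3 was left out.

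Of 9 genes of differentiating spermatogonia 7 were tested, and 2 of them fell, against 21.1% of all tested genes. Kit, the receptor for KIT ligand, was at 15.1 and 18.5 FPKM and then at 9.78, 8.80 and 12.6 FPKM. Its change of -0.65 had an adjusted p of 0.0314 but a ratio of medians of 0.582, so it was not called. Dnmt3b, a DNA methyltransferase, fell by 1.13 on the log2 scale and Sohlh1, a regulator of spermatogonial differentiation, by 0.93. Neither fall was called without 14.5 dpp replicate 1 or without replicate 2, and that of Sohlh1 was also lost without 24.5 dpp replicate 1 or 2. Among 22 genes of the mitotic cycle and DNA replication, 9 fell, 1 rose and 12 were not called (median -0.55). The proliferation marker Mki67 was at 52.5 and 63.2 FPKM and then at 63.3, 62.7 and 69.3 FPKM (adjusted p = 0.364), and Top2a was at 39.5 and 29.7 and then at 43.6, 40.7 and 41.4 FPKM (adjusted p = 0.194). The largest falls were in nucleotide synthesis, Rrm2 (-2.43) and Tk1 (-2.25). Rrm2 was listed at 0 in all 3 testes of 8.5 dpp, in 2 of 3 D6 explants and in 1 of 3 D16 explants, which can mean that it was not estimated there, so its fall is given as listed. The rise was that of Cdc20, an activator of the anaphase-promoting complex (1.22, 57.2 and 51.6 FPKM, then 137, 143 and 107 FPKM). The falls numbered 5 without 14.5 dpp replicate 1, and the call of Rrm2 was lost without either 14.5 dpp testis or 24.5 dpp replicate 2 and under median-of-ratios scaling, while its change was -1.58 without 24.5 dpp replicate 1.

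The machinery that pairs chromosomes rose almost as a whole. Of 14 listed genes of the synaptonemal complex and meiotic cohesin 12 were tested, 11 rose and 1 was not called (median 2.61). Sycp3, which forms the lateral element of the complex, was at 6.17 and 38.4 FPKM at 14.5 dpp and at 475, 460 and 461 FPKM at 24.5 dpp (4.79, SE 0.66, adjusted p = 0.00278). The 24.5 dpp testes were nearly equal, while the 14.5 dpp testes were far apart. Sycp1, the transverse filament that closes synapsis, was at 0.528 and 1.92 and then at 45.2, 33.7 and 43.2 FPKM (4.29, SE 0.30, adjusted p = 0.00036). Hormad1, which coats unsynapsed axes, was at 5.70 and 24.7 and then at 183, 179 and 177 FPKM (3.78, adjusted p = 0.00291). The member not called was Rec8, a meiotic cohesin subunit, at 0.470 and 4.79 and then at 1.91, 2.98 and 0 FPKM.

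Genes that make and process double-strand breaks changed less evenly. Of 20 listed genes 14 were tested, of which 7 rose, 1 fell and 6 were not called (median 1.45). Spo11, which cuts the DNA, was listed at 0 and at 1.0 FPKM at 14.5 dpp and stood at 14.8, 16.4 and 13.2 FPKM at 24.5 dpp (3.48, SE 0.30, adjusted p = 0.000754). The meiotic recombinase Dmc1 was at 1.57 and 7.11 and then at 20.4, 22.2 and 24.5 FPKM (2.35, adjusted p = 0.00788, with a change of 1.52 without 14.5 dpp replicate 1), and Meiob, a single-strand binding protein, was at 0.775 and 1.82 and then at 22.8, 24.4 and 23.6 FPKM (3.46, adjusted p = 0.000305). Prdm9, which sets the places of the breaks, was at 1.63 and 9.30 and then at 12.0, 13.3 and 16.5 FPKM and was not called (adjusted p = 0.0573), except without 14.5 dpp replicate 2. Trip13, which removes HORMA proteins from the axes, was the gene that fell, from 7.85 and 4.08 to 1.81, 1.92 and 2.78 FPKM (-1.09, adjusted p = 0.018), and its call was lost without 14.5 dpp replicate 1 or without 24.5 dpp replicate 1 or 2.

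Of 13 listed crossover genes 8 were tested and 6 rose (median 1.54), and of 6 genes that attach telomeres to the nuclear envelope 4 were tested and 3 rose (median 1.71). Cntd1, needed to single out the sites of crossover, had the largest rise among them, from 0.314 and 0.943 to 87.2, 97.9 and 66.5 FPKM (5.71, SE 0.24, adjusted p = 0.000198). Mlh3, a subunit of the nuclease that resolves crossovers, rose from 10.2 and 11.3 to 28.3, 29.4 and 22.4 FPKM (1.23, adjusted p = 0.00289). In 24.5 dpp replicate 3 Mlh3 was below both other testes but still above the 14.5 dpp values.

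The piRNA pathway, which silences transposons in germ cells by small RNAs, had 14 of 19 listed genes tested, of which 13 rose and 1 fell (median 2.32). Piwil1, the PIWI protein of pachytene cells, was at 0.551 and 1.38 and then at 240, 291 and 156 FPKM (6.86, SE 0.31, adjusted p = 0.00021). Piwil2, present from spermatogonia on, was at 9.31 and 11.4 and then at 155, 169 and 126 FPKM (3.73, SE 0.18). Piwil4, the PIWI protein of early germ cells, moved the other way, from 3.69 and 3.80 to 1.12, 1.38 and 1.62 FPKM (-1.0, SE 0.15, adjusted p = 0.00355). Of the 3 PIWI genes Piwil1 was the lowest in both 14.5 dpp testes and the highest in each 24.5 dpp testis. The Tudor proteins Tdrd6 (6.06) and Tdrd1 (3.37) and the helicase Ddx4 (2.27) were among the other rises.

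Of 14 listed transcription and RNA regulators of spermatocytes 8 were tested and 5 rose (median 1.26), or 8 of 8 under median-of-ratios scaling. Mybl1, the MYB factor that switches on pachytene genes, was at 4.46 and 5.17 and then at 28.5, 31.9 and 25.1 FPKM (2.34, SE 0.16, adjusted p = 0.000358). Rfx2, a factor of late spermatocytes and spermatids, was at 1.54 and 2.24 and then at 49.6, 52.5 and 33.3 FPKM (3.98, SE 0.24, adjusted p = 0.00028). Ybx2, which stores mRNA in germ cells, rose most, from 3.42 and 7.24 to 687, 713 and 453 FPKM (6.65). Crem, whose activator form acts in spermatids, was at 6.19 and 6.80 and then at 12.9, 13.5 and 8.41 FPKM (0.72, adjusted p = 0.0351), with a ratio of medians below 2.

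Products of pachytene spermatocytes showed the highest median of all the lists with more than 5 tested genes (4.25): of 19 listed, 16 were tested and 15 rose. Hspa2, a chaperone that pachytene cells need to leave prophase, was at 23 and 26.8 and then at 1050, 1121 and 752 FPKM (5.22, SE 0.21, adjusted p = 0.000178). Ldhc, the lactate dehydrogenase of germ cells, was at 0.486 and 0.405 and then at 336, 368 and 187 FPKM (7.63, SE 0.31, adjusted p = 0.000178). Pgk2, the germ cell phosphoglycerate kinase, was at 0.449 and 0.744 and then at 48.1, 57.7 and 31.5 FPKM (4.84, SE 0.27). For all 3 genes the groups were far apart, and replicate 3 was the lowest of the 24.5 dpp testes. Ccna1, the cyclin of late prophase, rose from 1.84 and 1.94 to 10.7, 12.5 and 11.3 FPKM (2.11), and H1f6, the testis linker histone, from 0.0397 and 0.212 to 2.55, 3.46 and 2.60 FPKM (1.78). The member not called was Calr3, a chaperone, at 5.39 and 4.30 and then at 1.58, 2.67 and 4.28 FPKM. The rises numbered 14 or 15 under each alternative and without any single library.

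Levels of later testes place these rises in time. The mean of Sycp3 was highest at 24.5 dpp (465 FPKM ± 8.19, SD, n = 3) and was 262 ± 9.30 at 30.5 dpp and 114 ± 18.9 at 53.5 dpp. Piwil1 and Spo11 were likewise highest at 24.5 dpp among the 6 ages. Hspa2 was highest at 30.5 dpp (1751 FPKM ± 70.3, SD, n = 3), and Pgk2 was 311 ± 56.2 FPKM at 30.5 dpp, 537 ± 15.3 at 36.5 dpp and 1013 ± 52.4 at 53.5 dpp (SD, n = 3). Of the 1687 genes that rose, 475 had their highest in vivo mean at 24.5 dpp, 522 at 30.5 dpp, 367 at 36.5 dpp and 315 at 53.5 dpp. Over all 11589 tested genes the shares of these 4 ages were 18.8%, 10.3%, 7.13% and 8.47%. Of the 2444 genes that fell, 1532 were highest at 8.5 dpp and 791 at 14.5 dpp, against 30.2% and 25.1% of all tested genes. The choice of the genes fixes part of these counts, since a gene that rose cannot be highest at 14.5 dpp nor one that fell at 24.5 dpp.

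**Figure D1:**
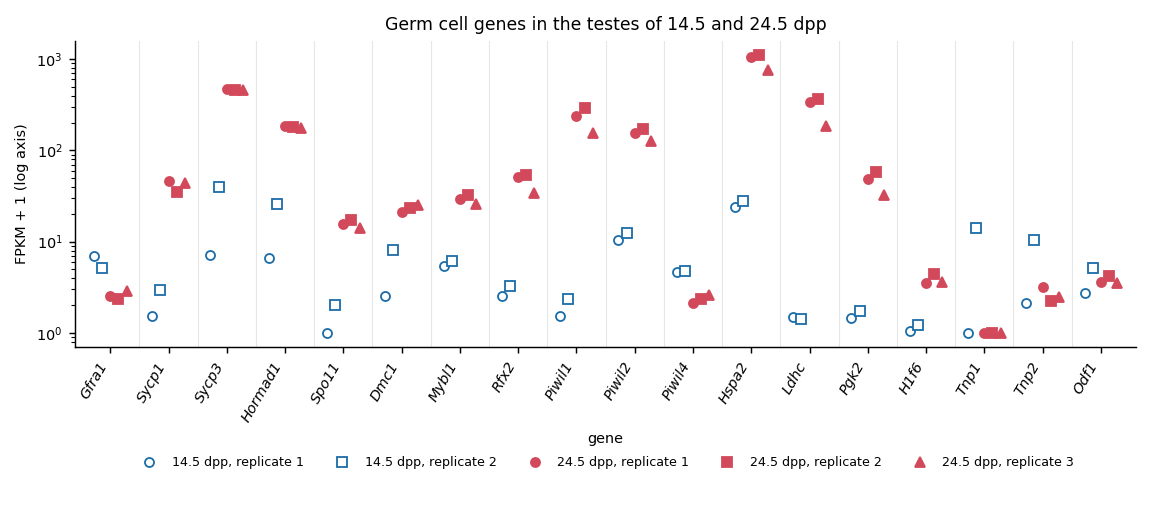
FPKM + 1 on a log axis for 18 germ cell genes, with 1 point for each library (blue open, 14.5 dpp, 2 testes; red filled, 24.5 dpp, 3 testes). Genes from Sycp1 to H1f6, apart from Piwil4, are higher in all red points, Sycp3 is spread from 6.17 to 38.4 FPKM at 14.5 dpp, and Tnp1 is above 0 only in the 14.5 dpp testis of replicate 2.

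Genes of haploid spermatids were mostly near 0 at both ages. Of 24 listed genes 14 passed the filter, of which 4 rose, 1 fell (Tssk6, -0.97, not called without 14.5 dpp replicate 1) and 9 were not called (median -0.15). Prm1, a protamine, was listed at 0 in all 5 libraries, against a mean of 4881 FPKM at 53.5 dpp, and Acrv1, an acrosomal protein, was at most 0.227 FPKM. Tnp1, a transition protein that replaces histones, was listed at 0 in 4 libraries and was at 13.1 FPKM in 14.5 dpp replicate 2, which is 0.142% of the 53.5 dpp mean of 9208 FPKM. In the same library Tnp2 was at 9.47 FPKM (0.22% of its 53.5 dpp mean) and Prm2 at 2.40 FPKM (0.276%), while Tnp2 was at 1.21 to 2.16 FPKM at 24.5 dpp. The change of Tnp1 was called (-3.81) without 14.5 dpp replicate 1, which leaves that library alone at its age. Whether these reads came from that testis or from another library cannot be told from these values and was not tested. The 4 genes that rose were Dkkl1 (5.62), Zpbp (3.20), Akap3 (2.31) and Spaca1 (1.04), of which Zpbp and Spaca1 belong to the acrosome and Akap3 to the flagellum. Dkkl1, a secreted protein of the acrosome, went from 2.26 and 8.31 to 335, 255 and 228 FPKM, which is above the other spermatid genes in every 24.5 dpp testis.

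**Figure D2:**
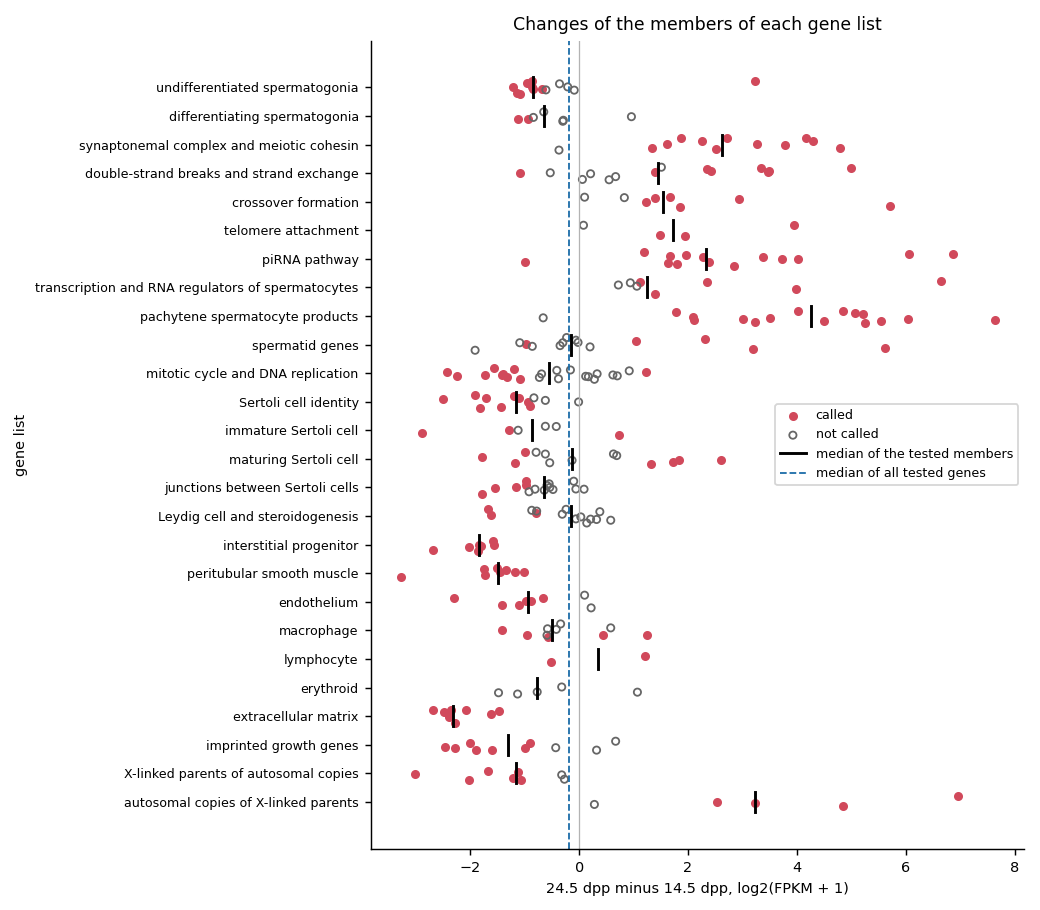
Change from 14.5 to 24.5 dpp on the log2(FPKM + 1) scale for the tested members of 26 gene lists, with called genes filled, others open, the list median as a black bar and the median of all tested genes (-0.18) as a dashed line. Medians of the meiotic, piRNA and pachytene lists lie between 1.26 and 4.25, and those of the matrix, interstitial progenitor and peritubular lists between -2.31 and -1.48.

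Genes of chromosome X fell as a group. In pachytene spermatocytes the sex chromosomes are silenced, and several X-linked genes of general metabolism have autosomal copies that are used in germ cells. Of 383 tested genes on chromosome X 51.4% were lower at 24.5 dpp and 6.01% higher, compared with 20.1% and 14.8% of 11181 autosomal genes. The median change was -0.76 on chromosome X and -0.16 on the autosomes, and the lowest median of any of the 20 autosomes was -0.26. Between 14.7% and 25.4% of the genes of each autosome were lower. Relative to the 14.5 dpp mean, the median for chromosome X was -0.83, -0.92 and -0.63 in the 3 testes of 24.5 dpp, against -0.16, -0.20 and -0.09 for the autosomes. It was -0.81 when measured from 14.5 dpp replicate 1 and -0.77 from replicate 2. Genes are not independent replicates, so no p is given for these medians, and the chromosome of each gene was read from RefSeq annotation of GRCr8.

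**Figure D3:**
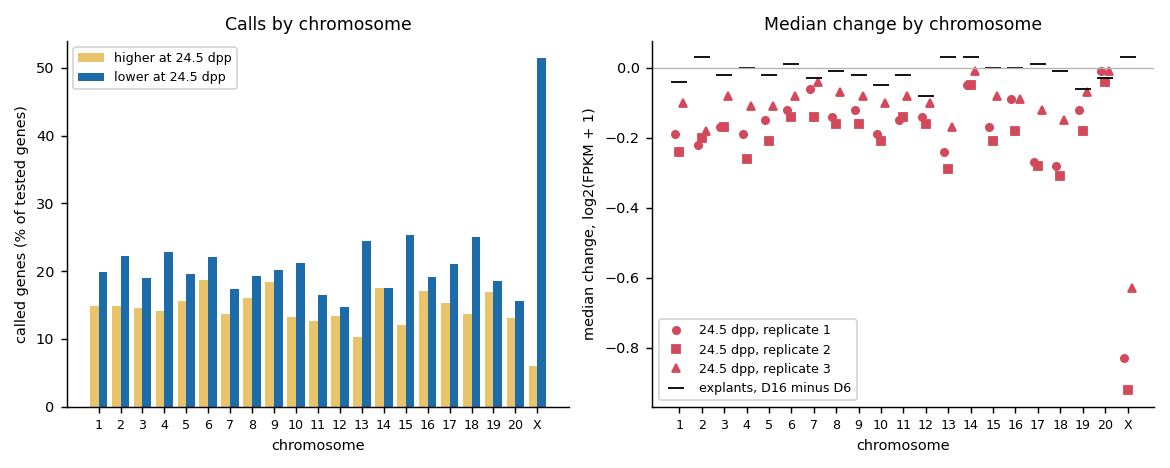
Left, percent of the tested genes of each chromosome called higher or lower at 24.5 dpp; right, the median change of each 24.5 dpp testis from the 14.5 dpp mean on the log2(FPKM + 1) scale, with the change of the explants from D6 to D16 as a dash. Chromosome X reaches 51.4% lower genes and medians of -0.92 to -0.63, while its dash lies at 0.03.

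In the pairs of Pgk1 and Pgk2, Pdha1 and Pdha2, and Rpl39 and Rpl39l1, the X-linked parent fell and the autosomal copy rose. Of 8 parents tested 6 fell (median -1.16), and of 5 copies tested 4 rose (median 3.22). Several of these genes, such as Rpl10 and Cetn1, had no partner among those tested. Pgk1 was at 19.2 and 18.0 and then at 10.8, 8.36 and 5.54 FPKM (-1.12, adjusted p = 0.014, not called without either 14.5 dpp testis or 24.5 dpp replicate 3), so that the order of Pgk1 and Pgk2 in every testis was reversed between the ages. Pdha1, a subunit of pyruvate dehydrogenase, was at 25.6 and 24.1 and then at 11.6, 10.2 and 12.7 FPKM (-1.06), while its copy Pdha2 was at 9.86 and 13.8 and then at 126, 132 and 98.2 FPKM (3.22, SE 0.21, adjusted p = 0.000324). Rpl39 was at 115 and 63.4 and then at 24.6, 23 and 30.7 FPKM (-1.68), and its copy Rpl39l1 at 112 and 128 and then at 718, 795 and 595 FPKM (2.53). Rpl10 fell by 3.01 on the log2 scale, from 419 and 280 to 44.1, 27.8 and 59.6 FPKM. Genes of ribosomal proteins have many near-identical copies in the genome, so reads may have been split between them and these values are uncertain. Cstf2 and its copy Cstf2t, both needed for the 3′ ends of mRNA, were not called (-0.32 and 0.28), nor was the ATP carrier Slc25a5 (-0.27). Centrin gene Cetn1 rose by 6.95 on the log2 scale, from 0.190 and 0.454 to 171, 240 and 102 FPKM.

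Genes that identify Sertoli cells fell. All 12 listed genes were tested, of which 9 fell, 0 rose and 3 were not called (median -1.15). Their summed level was 1350 and 1272 FPKM at 14.5 dpp and 465, 427 and 592 FPKM at 24.5 dpp. Sox9, the factor that directs the Sertoli fate, was at 56.5 and 75.3 and then at 14, 15.0 and 22.0 FPKM (-1.91, SE 0.24, adjusted p = 0.00221). Dhh, a ligand for Leydig and peritubular cells, was at 113 and 109 and then at 16.8, 14.2 and 27.5 FPKM (-2.50, SE 0.28), and Kitlg, the ligand of KIT, was at 148 and 159 and then at 38.4, 36.8 and 54.8 FPKM (-1.82, SE 0.21). Their groups did not overlap, and replicate 3 was the highest of the 24.5 dpp testes for each. The FSH receptor Fshr was at 10.1 and 6.29 and then at 3.37, 3.13 and 6.17 FPKM, so that replicate 3 was within 0.2 of a 14.5 dpp value, and it was not called (-0.83, adjusted p = 0.0614).

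Markers of the immature Sertoli cell did not move as a block. Of 6 tested genes 2 fell, 1 rose and 3 were not called. Amh, which encodes anti-Müllerian hormone, was at 52.8 and 85.3 FPKM at 14.5 dpp and at 25.4, 18.1 and 59.5 FPKM at 24.5 dpp (-1.12, SE 0.50, adjusted p = 0.103). The groups overlapped, since replicate 3 of 24.5 dpp lay above replicate 1 of 14.5 dpp, and Amh was not called. In older testes its mean was 5.80 FPKM ± 1.08 at 30.5 dpp and 1.63 ± 0.376 at 53.5 dpp (SD, n = 3). The keratin Krt8 fell from 17.3 and 2.76 to 0, 0.134 and 0.239 FPKM (-2.89, adjusted p = 0.0106, with a change of -1.75 without 14.5 dpp replicate 1), and Krt18 was at 1.37 FPKM in 14.5 dpp replicate 1 and listed at 0 in the other 4 libraries, and was called (-1.24) only without 14.5 dpp replicate 2. Inhbb, an activin and inhibin subunit, fell from 211 and 138 to 65.6, 62.9 and 82.5 FPKM (-1.28, adjusted p = 0.00621). The call of Cyp19a1, aromatase, from 0 in both to 0.807, 0.882 and 0.339 FPKM, was lost without either 14.5 dpp testis and without replicate 1 or 2 of 24.5 dpp.

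Markers of the maturing Sertoli cell were split. Of 14 listed genes 13 were tested, of which 4 rose, 3 fell and 6 were not called (median -0.13). Among all tested genes 14.6% were called higher and 21.1% lower. Clu, clusterin, was at 423 and 998 and then at 1499, 1366 and 2082 FPKM (1.32, SE 0.39, adjusted p = 0.0301). Shbg, the androgen-binding protein that Sertoli cells secrete, was at 49.9 and 177 and then at 291, 258 and 411 FPKM (1.73, SE 0.52, adjusted p = 0.0335). In both, all 24.5 dpp testes were above both 14.5 dpp testes, of which replicate 2 was the higher. The other rises were those of Cst12 (2.60) and Il1a (1.84). Neither Clu nor Shbg was called without 14.5 dpp replicate 1 or with any of the 24.5 dpp testes left out. The count of rises was 0 without 14.5 dpp replicate 1, 1 without 24.5 dpp replicate 1 or replicate 2 and 2 without replicate 3. Genes known to gain activity in maturing Sertoli cells were among those not called. Rhox5 was at 0.806 and 2.41 and then at 1.03, 1.24 and 1.59 FPKM (-0.13). Tf, transferrin, was at 10.2 and 13.9 and then at 16.3, 21.9 and 19.2 FPKM (0.63, adjusted p = 0.0381). It was thus higher in every 24.5 dpp testis, with a ratio of medians of 1.59, below the threshold. The falls were those of Thra (-1.78), the thyroid hormone receptor, Tsx (-1.17) and the cell cycle inhibitor Cdkn1b (-1.0), which was not called when any library other than 24.5 dpp replicate 3 was left out. Under median-of-ratios scaling 1 of these falls was called. The mean of Thra was already lower at 14.5 dpp (72.7 FPKM) than at 8.5 dpp (128 FPKM), so its fall did not begin with this interval.

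Junction genes between Sertoli cells were tested for 15 of 16 listed, of which 5 fell, 0 rose and 10 were not called (median -0.64). Cldn11, the main claudin of the blood-testis barrier, was at 454 and 406 and then at 172, 202 and 298 FPKM (-0.97, SE 0.25, adjusted p = 0.0199), and the gap junction gene Gja1 was at 153 and 156 and then at 60.9, 67.2 and 79.1 FPKM (-1.16, SE 0.16, adjusted p = 0.00292). Neither gene had overlapping groups. Under median-of-ratios scaling neither was called, and the call of Cldn11 was lost when any library other than 24.5 dpp replicate 3 was left out. The other falls were those of Itga6 (-1.78) and Itgb1 (-1.54), integrins at the base of the tubule, and of Jam2 (-0.97). Itga6 was not called without 14.5 dpp replicate 1, and Jam2 depended on the same libraries as Cldn11. The scaffold Tjp1, in contrast, was at 43.0 and 44.8 and then at 40.2, 41.3 and 45.2 FPKM (-0.06, adjusted p = 0.745). Cldn3 was below 0.4 FPKM in each of the 5 libraries and was not tested. Without 14.5 dpp replicate 1 the falls numbered 2, and without 14.5 dpp replicate 2 or 24.5 dpp replicate 2 they numbered 3.

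**Figure D4:**
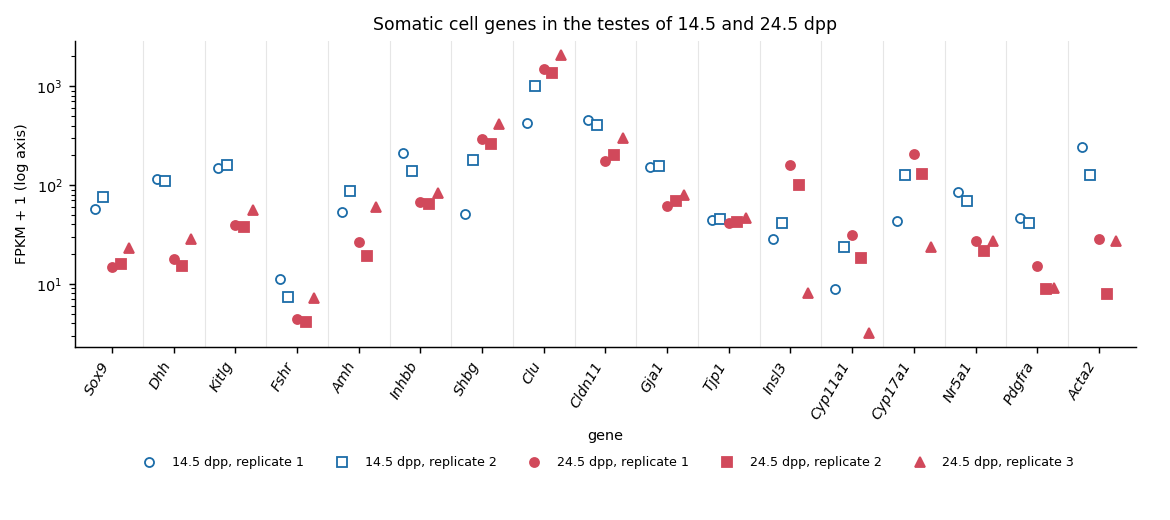
FPKM + 1 on a log axis for 17 somatic genes, with 1 point for each library (blue open, 14.5 dpp, 2 testes; red filled, 24.5 dpp, 3 testes). Sox9, Dhh, Kitlg, Cldn11 and Gja1 are lower in all red points and Clu and Shbg higher, while Insl3 ranges from 7.18 to 160 FPKM among the 3 testes of 24.5 dpp.

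Most Leydig cell genes were not called, and the 24.5 dpp testes were far apart in them. All 14 listed genes were tested, of which 3 fell, 0 rose and 11 were not called (median -0.15). Among all tested genes 21.1% were called lower and 14.6% higher. Insl3, a hormone of Leydig cells, was at 27.3 and 40.0 and then at 160, 98.1 and 7.18 FPKM (0.58, SE 1.22, adjusted p = 0.712). Cyp17a1, an enzyme of androgen synthesis, was at 42.2 and 125 and then at 203, 128 and 22.4 FPKM (0.21, SE 0.96), and Cyp11a1, which cleaves the side chain of cholesterol, was at 7.83 and 22.5 and then at 29.9, 17.3 and 2.19 FPKM (-0.24, SE 0.98). Replicates 1 and 2 of 24.5 dpp lay above both 14.5 dpp testes for Insl3 and replicate 3 below both. The summed level of the list was 711, 445 and 164 FPKM in the 3 testes. Srd5a1, a 5α-reductase, was at 5.69 and 9.95 and then at 12.5, 7.74 and 4.68 FPKM. The genes that fell were Akr1c14 (-1.68), Nr5a1 (-1.61), which Sertoli cells express as well, and Hsd17b3 (-0.79), which was listed at 0 in 2 of 3 testes of 24.5 dpp. Without 24.5 dpp replicate 3 Insl3 rose (1.89), without 14.5 dpp replicate 1 the falls numbered 1, Akr1c14 and Hsd17b3 being lost, and Hsd17b3 was also lost without 14.5 dpp replicate 2 or 24.5 dpp replicate 1 or 3.

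Genes of other cells of the interstitium and the tubule wall fell as groups. All 7 genes of interstitial progenitors fell (median -1.84), as did all 8 of peritubular smooth muscle (median -1.48) and all 8 tested of 12 genes of the extracellular matrix (median -2.31). Pdgfra, the PDGF receptor of progenitors, was at 45.2 and 40.6 and then at 14.2, 7.98 and 8.08 FPKM (-2.03, SE 0.26, adjusted p = 0.00245). Acta2, smooth muscle actin, was at 243 and 127 and then at 27.7, 6.86 and 26.1 FPKM (-3.27, SE 0.62, adjusted p = 0.00716), and Myh11 at 53.9 and 41.9 and then at 19.2, 12.8 and 18.9 FPKM (-1.46). Collagen genes Col1a1 (-2.39), Col3a1 (-2.68) and Col4a1 (-2.48) fell with them. Without 14.5 dpp replicate 1 the peritubular falls numbered 3, without Acta2, and Col1a1 was not called without either 14.5 dpp testis.

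Of 9 endothelial genes 8 were tested and 6 fell (median -0.94), with Cdh5, the cadherin of endothelial junctions, at 15.2 and 12.2 and then at 3.15, 1.15 and 1.94 FPKM (-2.30, adjusted p = 0.00221). Without 14.5 dpp replicate 1 the falls numbered 2. Of 10 macrophage genes tested 3 fell and 2 rose, Cx3cr1 (1.25) and Cd163 (0.44), against 21.1% lower and 14.6% higher among all tested genes. Csf1r, the receptor that macrophages depend on, was at 1.96 and 1.89 and then at 1.21, 0.843 and 0.853 FPKM (-0.58, adjusted p = 0.0204). Without either 14.5 dpp testis or 24.5 dpp replicate 2 the falls numbered 1 and Csf1r was not called, nor was it without 24.5 dpp replicate 3. Red cell genes were not called, with Hba1, a globin, at 515 and 638 and then at 430, 126 and 160 FPKM (adjusted p = 0.051). Of 2 lymphocyte genes tested, 1 rose, Cd3e (1.21), and 1 fell, and each call was lost when single libraries were left out.

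Of 10 imprinted genes of growth 7 fell and 0 rose (median -1.30). H19, a maternally expressed RNA, was at 25.2 and 12.7 and then at 2.14, 1.55 and 3.96 FPKM (-2.47, SE 0.38, adjusted p = 0.00377), while Igf2, its paternally expressed neighbour, was at 7.48 and 8.53 and then at 10.2, 8.18 and 12.6 FPKM (0.32, adjusted p = 0.222). Dlk1, a growth regulator that stromal cells make, was at 32.2 and 35.8 and then at 12.6, 7.32 and 12.4 FPKM (-1.60). Leaving out 14.5 dpp replicate 1 lowered the falls to 4.

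To ask which of these changes also took place in cultured tissue, the same 10 days of age were compared between D6 and D16 explants. The change in vivo minus the change in culture was tested as an interaction in limma, and genes count as called if the adjusted p was at most 0.05 and the changes were at least 1 apart. The 4 groups share no library. Of 11944 genes tested 25.3% were called, 11.9% with the higher change in vivo and 13.4% with the lower. The median change over all genes tested between the ages was -0.02 in culture.

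Pachytene products had little change in the explants, while some genes of earlier meiosis moved up. The median change in culture was 0.30 for the synaptonemal genes, 0.12 for those of double-strand breaks and 0.03 for the piRNA pathway. Sycp1 was at 0.563, 0.427 and 0.272 FPKM at D6 and at 1.37, 1.19 and 1.53 FPKM at D16. In all 16 tested pachytene products the median change in culture was 0, and for 15 of them the change was higher in vivo. Ldhc was listed at 0 in all 3 D16 explants, and Hspa2 was at 18.2, 17.1 and 18.9 FPKM at D6 and at 14.8, 15.3 and 17.8 FPKM at D16, so its change differed by 5.39 (SE 0.22, adjusted p = 3.77e-07). Sycp3 was at 7.82, 9.56 and 3.52 FPKM and then at 10.6, 11 and 16.1 FPKM, a difference between the changes of 3.96 (SE 0.79, adjusted p = 0.00234). Among the synaptonemal genes 10 of 12 had the higher change in vivo, among those of the piRNA pathway 13 of 14, with Piwil4 the 1 gene lower (-1.05, lost without 24.5 dpp replicate 1 or D16 replicate 1), and among those of double-strand breaks 7 of 14. The difference of Dmc1 (1.75, adjusted p = 0.0207) was not called without 14.5 dpp replicate 1.

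The fall of Sertoli cell genes was not seen in culture. Of 12 identity genes 9 had a lower change in vivo, and the median change of the list in culture was 0.20. Sox9 was at 52.9, 52.6 and 47.2 FPKM at D6 and at 45.6, 48.7 and 45.6 FPKM at D16 (difference -1.79, SE 0.25, adjusted p = 0.000302). Kitlg, at 91.3, 90.8 and 55.1 and then at 143, 141 and 149 FPKM, moved up in culture by 0.90 and had a difference of -2.72. Cldn11 was at 239, 157 and 181 and then at 330, 377 and 350 FPKM (difference -1.87, SE 0.31, adjusted p = 0.000831), and 9 of 15 junction genes had a lower change in vivo. Fshr was not called between the ages in vivo but differed from culture in its change (-1.37, adjusted p = 0.0156), though this difference was lost without 14.5 dpp replicate 1.

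Of the 6 immature Sertoli genes 2 had a lower change in vivo. Of 13 tested maturing Sertoli genes 4 had a lower change in vivo and 1 a higher one. Over all genes tested these shares were 13.4% and 11.9%. For Amh, Clu and Shbg no difference was called. Amh dropped in culture from 77.6, 76.1 and 87.6 to 28.1, 34.1 and 33.6 FPKM, a change of -1.31 next to -1.12 in vivo (difference 0.19, SE 0.53, adjusted p = 0.794). Clu was at 554, 437 and 468 and then at 1340, 1559 and 1637 FPKM, a change of 1.64 next to 1.32 in vivo, and Shbg changed by 0.62 next to 1.73 (difference 1.11, SE 0.56, adjusted p = 0.125, called at 2.01 without 14.5 dpp replicate 2). Among the Leydig genes, several were low in the explants. Cyp17a1 was at 0 to 0.176 FPKM at D6 and at 0.254 to 0.702 FPKM at D16. Over both times Cyp11a1 was at 0.736 to 2.00 FPKM, Insl3 at 0.395 to 2.40 FPKM and Lhcgr at 0.744 to 2.22 FPKM. Hsd3b1, at 5.38 to 11.8 FPKM, was below its level in each of the 5 testes (31.0 to 187 FPKM). Some other members were not low, such as Nr5a1 at 91.6 to 115 FPKM, and Hsd17b3 at 2.83 to 4.61 FPKM was above its level in each of the 5 testes. The differences of Insl3, Cyp17a1 and Cyp11a1 had standard errors of 1.01 to 1.32, with that of Insl3 called (2.38) only without 24.5 dpp replicate 3. Peritubular genes moved down in culture too (median -1.03), and 1 of 8 differed.

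**Figure D5:**
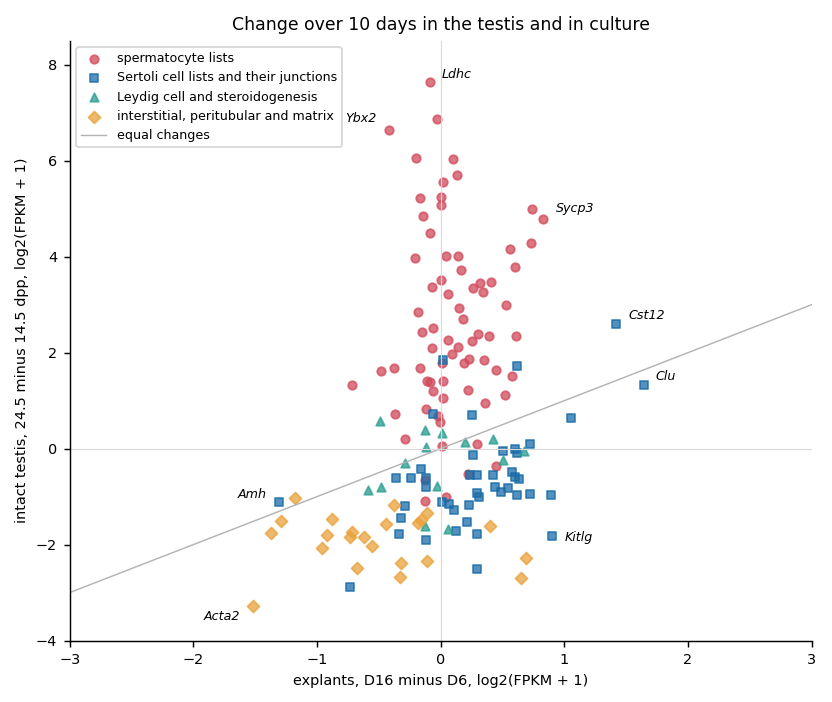
Change from D6 to D16 in explants (horizontal) against change from 14.5 to 24.5 dpp in the testis (vertical), both on the log2(FPKM + 1) scale, for the tested members of 4 families of lists, with 1 point per gene and equal changes on the line. Spermatocyte genes form a column between -0.72 and 0.83 in culture that reaches 7.63 in vivo, and Clu lies near the line.

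Chromosome X set the explants apart as well. Its genes had a median change of 0.03 in culture against -0.02 for the autosomes. Of 391 X-linked genes tested 136 had a lower change in vivo and 14 a higher one, with a median difference of -0.78, compared with 1463 and 1401 of 11528 autosomal genes and a median difference of -0.12. As above, these medians are over genes of the same libraries and carry no p.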

How the data were processed

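RNA of whole testes of Wistar Han rats and of cultured explants was sequenced by the authors, who aligned 50 bp reads to rn6 with STAR 2.5.2a after demultiplexing with bcl2fastq 2.17.1.14 (per the submitters' processing notes) and deposited gene values in FPKM, scaled to mapped reads and to the length of the transcript. Of 17322 genes, listed by Entrez identifiers, 17172 were found in a RefSeq table. FPKM are not counts, so absolute depth is unknown and no counting interval is given. The step between low values gave relative depths.

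Deposited FPKM were transformed to log2(FPKM + 1), and genes whose median reached 0.5 FPKM in either age, or in any of the 4 groups for the comparison with culture, were tested by limma 3.58.1 in R 4.3.3 (lmFit, eBayes, Benjamini-Hochberg adjustment over all tested genes). The testes of 14.5 and 24.5 dpp were fitted by themselves, and the comparison with culture was an interaction contrast over 4 groups. The threshold was an adjusted p of 0.05 with a 2-fold ratio of medians, or with a difference of 1 for the interaction. The scripts were tested on simulated data. Tables and figures were made with Python 3.11.15, numpy 2.4.6, pandas 2.3.3 and matplotlib 3.10.9.

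The libraries and the 27 gene lists (328 symbols, of which 287 are in the file) were chosen with earlier results of these data known. Named were the key genes of each list, the 2 largest called rises and falls of each list, pairs of X-linked parents and autosomal copies, the 8 largest called rises and falls over all genes and, for the comparison with culture, key genes of spermatocytes, spermatids, Sertoli and Leydig cells. Outside this rule, Rec8, Prdm9, Tdrd1, Ddx4, Crem, Calr3, Prm2, Tnp2, Akap3, Spaca1, Kitlg, Clu, Cdkn1b, Jam2, Tjp1, Lhcgr, Hsd3b1 and Hba1 were named after their values were seen. The paper gives a different testis for each in vivo replicate, and the all-zero 14.5 dpp library was left out. Alternatives changed the pseudocount, the filter, the scaling, the prior variance, the fold threshold, the groups in the fit or the replicate block, or left out single libraries. Values of some listed genes are not reported here.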

Additional observations from a re-analysis of the deposited data

Results flagged for a closer look

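The change over 10 days differed between the intact testis and the explants at 3021 genes by the limma interaction test. Among the genes named for that comparison, the change on the log2(FPKM + 1) scale was higher in vivo for Sycp1 (3.56), Sycp3 (3.96), Hormad1 (3.18), Spo11 (3.07), Dmc1 (1.75), Meiob (3.13) and Mlh3 (1.01). It was also higher for Piwil1 (6.88), Piwil2 (3.57), Mybl1 (1.95), Rfx2 (4.2), Hspa2 (5.39), Ccna1 (1.97), H1f6 (1.59), Ldhc (7.71) and Pgk2 (4.98). It was lower in vivo for Piwil4 (-1.05), Sox9 (-1.79), Fshr (-1.37), Cldn11 (-1.87) and Gja1 (-1.23). The difference of Mlh3 lies just past the threshold of 1 and was not called in 7 of the alternatives, which include leaving out 14.5 dpp replicate 1, 24.5 dpp replicate 1 or replicate 2, D6 replicate 2 and D16 replicate 1 or replicate 2.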

How the results depend on the processing

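When 1 library was left out, the number of genes called between the ages ranged from 2585 (without 14.5 dpp replicate 1) to 4365, and it was 1609 with a 4-fold ratio of medians. The number that differed from culture ranged from 2726 to 3411 without single libraries. Same-numbered libraries of both ages had correlations of their deviations of 0.0753 and 0.0903 over 11589 genes, so they were taken to share only a number. With the replicate number as a block, 4210 genes were called between the ages and 3122 against culture.

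Among the named genes, directions turned only in those not called with all libraries. Without single libraries, the change between the ages ranged from -0.59 to 0.33 for Rhox5, from -0.95 to 0.72 for Cyp11a1, from -0.56 to 1.14 for Cyp17a1, from -0.32 to 0.39 for Srd5a1 and from -0.26 to 1.89 for Insl3. The change in vivo minus that in culture ranged from -0.29 to 0.54 for Amh, from -0.89 to 0.36 for Krt18, from -0.85 to 0.07 for Rhox5, from -0.64 to 0.04 for Tf, from -1.45 to 0.22 for Cyp11a1, from -0.98 to 0.72 for Cyp17a1 and from -0.21 to 0.50 for Srd5a1. With the block, Cyp11a1 changed by 0.72 between the ages, and the differences from culture were -0.01 for Amh and 0.12 for Cyp17a1, which was at 0.01 under median-of-ratios scaling. The causes were not tested.

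With 2 testes at 14.5 dpp, leaving out either makes the spread of that age an assumption from the other. Changes of genes near 0.5 FPKM are set in part by the pseudocount.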
